A study of Mus musculus with 2 samples.

Results

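Goblet cells were picked out of the 2 single-cell libraries by their own secretory transcripts. A barcode was kept when it held at least 500 gene UMIs (unique molecular identifiers, each standing for 1 captured transcript) and 300 genes with under 20% mitochondrial UMIs, and was counted as a goblet cell when Muc2, Spink4, Agr2, Tff3, Fcgbp and Zg16 together made up at least 2% of its gene UMIs and it held no UMI of Ptprc, Col1a2 or Mzb1. The rule found 815 goblet cells among 51389 kept barcodes, 488 of 9246 in the colotomy library and 327 of 42143 in the sham library. The members were therefore chosen by measured values of these 9 genes, and the values of those genes are given below as a description only.

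Both libraries came from mice of the genotype given as B6/C57, aged 8 to 12 weeks, at postoperative day 14, after colotomy (a surgical incision of the colon) in the first and sham surgery in the second. Bowel and mesenteric adipose tissue were digested, labelled with 1 hashtag antibody each and pooled, and goblet cells belong to the bowel part of this mixed suspension. Each surgery was represented by 1 library, the number of animals behind it was not given in the sources used here, and no difference between the surgeries could be tested. Exact 95% intervals are printed with the values, and they cover counting error only.

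Goblet cells are secretory cells of the intestinal epithelium that store mucin in granules and release it as the mucus gel that separates bacteria from the tissue. Muc2 is the gel-forming mucin of the intestine, Agr2 is a disulphide isomerase needed for its folding, Fcgbp and Zg16 are mucus proteins, Tff3 is a trefoil peptide, and Spink4 is a secreted protein with a serine protease inhibitor domain. The lineage depends on the transcription factor Atoh1, with Spdef acting in its maturation, and its large secretory load calls on the folding machinery of the endoplasmic reticulum.

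Some genes of this machinery carry a known DNA element, the endoplasmic reticulum stress element, and 4 of its copies are shown here because the levels of these genes are given in both comparisons below. Searched on both strands as CCAAT, any 9 bases and CCACG, it was present in the promoters (250 bases before to 50 after the start) of 8 of the 24 genes of the folding list that matched the RefSeq promoter table (33.3%; the list holds 28 genes), against 39 of all 32851 promoters (0.119%). The stretches below run 5′ to 3′ on the strand of the gene in GRCm38.p6, with the ends of the element in capitals. Pdia6 lies at chr12:17266461-17266539 on the plus strand, Hspa5 at chr2:34771995-34772073 on the plus strand, Canx at chr11:50325770-50325848 on the minus strand, and Calr at chr8:84847045-84847123 on the minus strand, where the element is read as its reverse complement.
Pdia6: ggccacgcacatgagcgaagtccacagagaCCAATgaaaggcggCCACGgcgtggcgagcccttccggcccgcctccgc
Hspa5: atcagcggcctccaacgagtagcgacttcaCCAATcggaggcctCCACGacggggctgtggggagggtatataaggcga
Canx: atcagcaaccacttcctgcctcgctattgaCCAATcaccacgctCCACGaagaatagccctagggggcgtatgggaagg
Calr: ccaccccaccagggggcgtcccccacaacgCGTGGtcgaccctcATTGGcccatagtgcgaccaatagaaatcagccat
A match describes the letters of the window and says nothing on whether a factor bound there.

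The libraries differed in several ways that bear on every value below. Gene UMIs totalled 12002711 over 15547 barcodes in the colotomy library and 74006762 over 44814 barcodes in the sham library. Goblet cells held a median of 1119 UMIs after colotomy and 3439 after sham surgery. A UMI of Xist, which is transcribed in female cells, was present in 12.9% of colotomy goblet cells and 0% of sham goblet cells, and a UMI of 4 Y-linked genes in 19.3% and 40.4% of them, so that the sex of the animals and the surgery cannot be told apart. The bowel hashtag exceeded the adipose hashtag in 99.2% of colotomy goblet cells but in 8.87% of sham goblet cells, and in 99.1% and 1.86% of all kept barcodes of the colotomy and sham libraries. With the adipose hashtag ahead in most sham goblet cells, the hashtags were not used to assign tissue. The libraries shared 190 barcode sequences, and 0 goblet cells carried the same barcode in both.

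Goblet cells made up a larger share of the colotomy library. They were 5.28% of its kept barcodes (exact binomial interval 4.83 to 5.75%) and 0.776% of those of the sham library (0.694 to 0.864%). Of goblet cells and other barcodes with an Epcam UMI together, they were 26.0% after colotomy and 8.29% after sham surgery. When the other Epcam barcodes were also required to lack Ptprc, Col1a2 and Mzb1, the shares were 38.5% (35.8 to 41.2%) and 23.6% (21.3 to 25.9%), so the size of the gap depended on the denominator. The absence of Ptprc, Col1a2 and Mzb1 removed 212 of 700 barcodes rich in the 6 genes from the colotomy library and 289 of 616 from the sham library. Of the removed barcodes, 40 and 221 held Ptprc, a pan-leukocyte gene, and 172 and 66 held the fibroblast collagen gene Col1a2. With every kept barcode thinned to 500 UMIs before the rule was read, an alternative added after seeing the data, the shares were 6.36% and 1.32%. Doublets were not called.

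The 6 genes filled a similar part of the transcripts in both libraries, but in a different mixture. Their median share of a cell's UMIs was 4.51% in colotomy goblet cells and 5.26% in sham goblet cells, and the highest was 31.3% and 18.8%. The 64 colotomy and 23 sham cells just inside the threshold, between 2 and 2.5%, had medians of 2.21% and 2.24%, and the 79 and 33 barcodes just outside it, from 1.5 to under 2%, had medians of 1.78% and 1.72%. Muc2, at chr7:141690340-141754693 of GRCm38, gave 26008 CPM (UMIs per 1000000 gene UMIs of the class) in colotomy goblet cells and 34420 in sham goblet cells. Spink4 gave 15362 and 16887 and Agr2 gave 5381 and 5587 CPM in colotomy and sham goblet cells, close to each other in the 2 libraries. Tff3, at chr17:31125306-31129646, gave 2811 CPM after colotomy and 617 after sham surgery, while a UMI of it was found in 42.2% and 41.0% of cells. Zg16 gave 1204 and 133 CPM and was seen in 47 of 488 colotomy and 15 of 327 sham goblet cells. Fcgbp gave 628 and 730 CPM and was seen in 92 colotomy and 116 sham goblet cells.

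**Figure D1:**
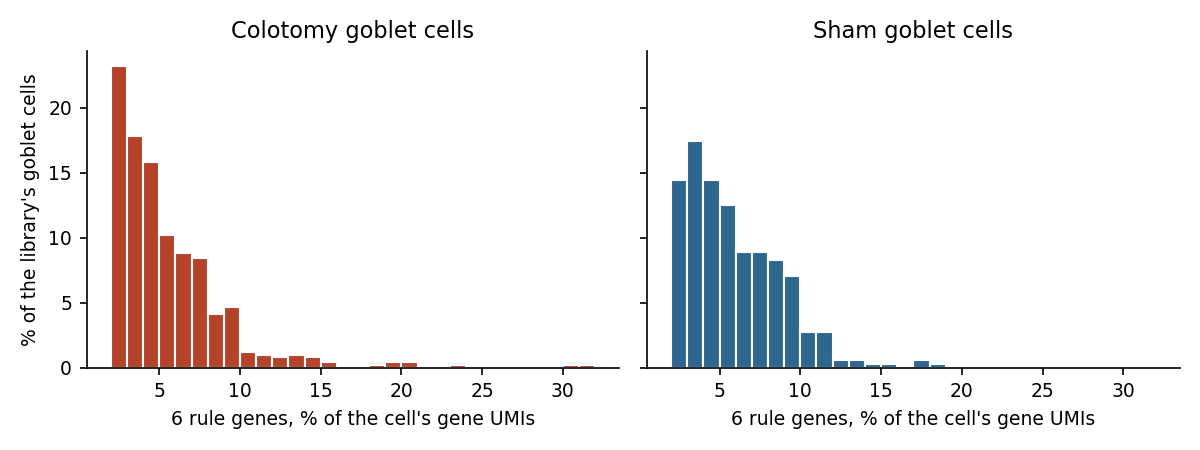
Share of each goblet cell's gene UMIs that the 6 rule genes take (x axis, 1% bins from the 2% threshold) against the percentage of the library's goblet cells in each bin (y axis), for 488 colotomy cells on the left and 327 sham cells on the right. Most cells of both libraries lie below 10%, with no second peak at high shares and with medians of 4.51% and 5.26%.

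The label was checked against 20 further goblet cell genes that the rule did not use, and it held. Of 19 with enough UMIs in both libraries, 18 were at least 1.5-fold higher in goblet cells than in other Epcam barcodes in both libraries, against 6.98% of all 6880 genes compared. Because the members were chosen on transcripts of the same cells, this count is a description and not a test. Spdef stood at 474 CPM in colotomy goblet cells and 84.8 in the other Epcam barcodes of that library, and at 349 and 57.3 in the sham library. Atoh1 stood at 204 against 47.4 CPM after colotomy and at 107 against 24.3 after sham surgery. Clca1, which codes for a secreted metalloprotease of the mucus, stood at 273 against 23.7 and at 984 against 194 CPM. Klf4, a factor of goblet cell differentiation that absorptive cells also use, was the exception, with 104 against 220 and 132 against 268 CPM. Best2, a colonic bestrophin channel, was at 0 UMIs in colotomy goblet cells and 6 UMIs in sham goblet cells.

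**Figure D2:**
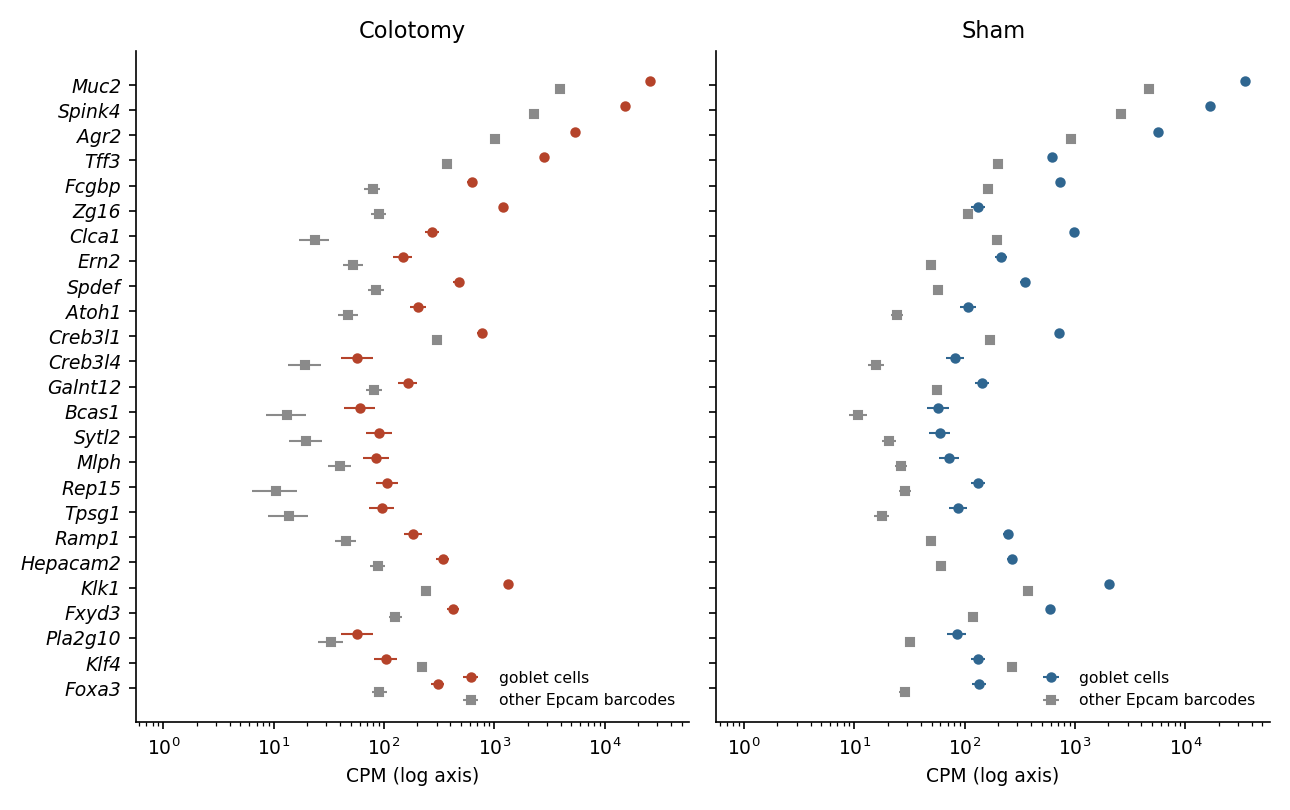
Levels in CPM (log axis) of the 6 rule genes and 19 further goblet cell genes in goblet cells (coloured circles) and other Epcam barcodes (grey squares), for the colotomy library on the left and the sham library on the right, with bars for exact 95% Poisson intervals. All but Klf4 lie further right in goblet cells of both libraries, with Zg16 nearly level in the sham library.

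Among genes outside the rule, those highest in goblet cells over other Epcam barcodes in both libraries were Cgref1, Mt3, Retnlb, Hgfac, Spdef, Klk1, Clca1, Slc12a8, Rap1gap, Atp2c2, Rep15, Hpd, Nupr1, Pck1 and Atoh1. Retnlb, a resistin-like bactericidal peptide, gave 1893 CPM in goblet cells and 258 in other Epcam barcodes of the colotomy library, and 3766 and 656 in the sham library. Klk1, a tissue kallikrein protease, had the same log2 ratio of 2.46 in each library. Other Epcam barcodes include some rich in the rule genes that held Ptprc, Col1a2 or Mzb1. Against other Epcam barcodes without those, the colotomy and sham log2 ratios were 3.35 and 3.60 for Klk1 and 4.44 and 5.96 for Retnlb. Mt3, a metallothionein, had log2 ratios of 2.58 and 2.79 in the colotomy and sham libraries. The group mixed secreted products (Retnlb, Klk1, Clca1, and Hgfac, a protease that activates hepatocyte growth factor) with genes of vesicle traffic and ions (Rep15, a Rab15 effector, and Atp2c2, a calcium and manganese pump of the secretory pathway) and of metabolism (Pck1 of gluconeogenesis and Hpd of tyrosine breakdown). Pck1 gave 107 and 106 CPM in colotomy and sham goblet cells and 21.5 and 24.1 in other Epcam barcodes.

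Lowest in goblet cells were genes of absorptive colonocytes and of stroma. Car1, a carbonic anhydrase of colonocytes, gave 225 CPM in goblet cells against 2380 in other Epcam barcodes after colotomy, and 152 against 1629 after sham surgery. Clca4a, Cyp2c55, Muc3, Emp1 and Krt20, a keratin of surface cells, were lower by log2 ratios between -4.11 and -2.91 in both libraries. The collagens Col1a1 and Col3a1 and the matrix protein Sparc were also in this group, and here the comparator matters, since other Epcam barcodes may hold Col1a2 and goblet cells may not. Against other Epcam barcodes without Ptprc, Col1a2 and Mzb1, the log2 ratio of Col1a1 was -0.45 after colotomy and -0.75 after sham surgery, instead of -2.78 and -3.08. Car1 stayed at -3.62 and -4.17 in that comparison.

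**Figure D3:**
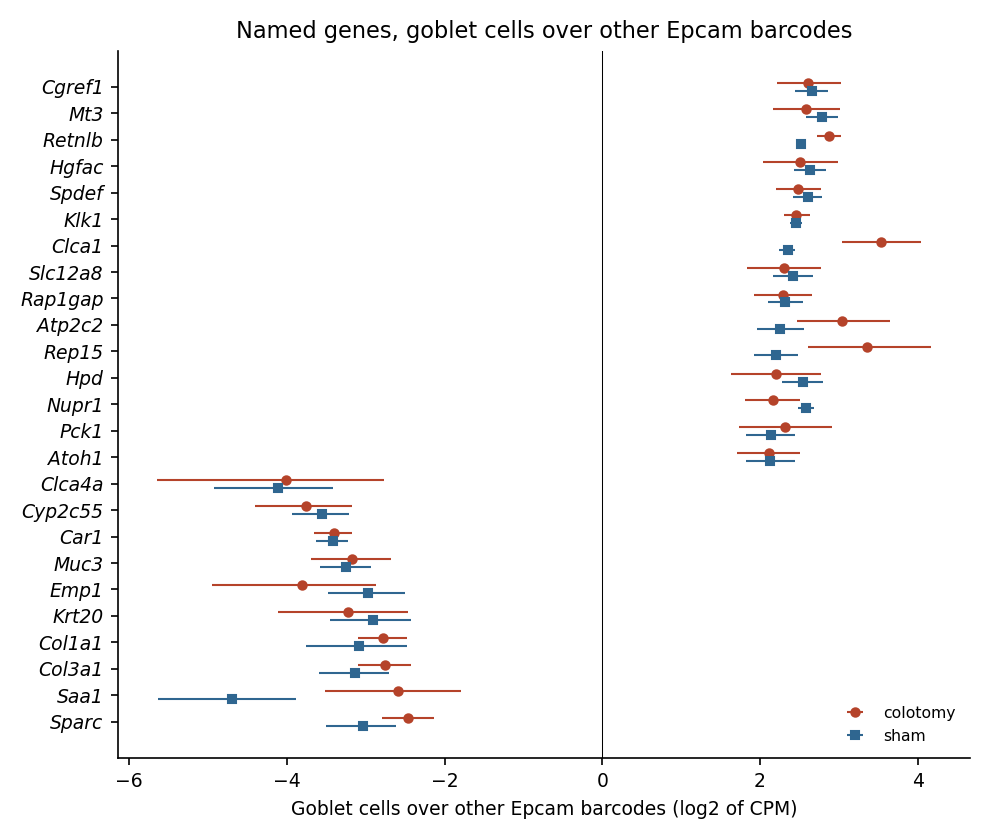
Log2 ratio of CPM in goblet cells over other Epcam barcodes (x axis) for the 15 genes highest and the 10 lowest in both libraries, with colotomy as red circles, sham as blue squares and bars for exact 95% intervals. The libraries lie close together for most genes, from 2.11 upward in the high group, while Clca1 and Rep15 are further right in the colotomy library and Saa1 further left in the sham library. Against other Epcam barcodes without Ptprc, Col1a2 or Mzb1 (not drawn), Rep15 had 3.92 in the colotomy and 4.44 in the sham library. Its order thus depended on the comparator, while Clca1 had 4.91 and 4.03 and Saa1 -2.77 and -5.35.

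The machinery that builds and ships mucin was higher in goblet cells as a group. Of 21 compared genes for mucin O-glycans and their sulphation, 14 were at least 1.5-fold higher in both libraries and 2 were lower. The median log2 ratios of the 21 genes were 1.19 after colotomy and 1.33 after sham surgery, against -0.10 and -0.03 over all genes compared. The higher genes included the transferase Galnt7 (683 against 245 CPM after colotomy, 530 against 164 after sham surgery). Another was C1galt1, which makes the core 1 glycan (328 against 144 and 267 against 103). Of 23 compared genes of secretory transport, 18 were higher in both libraries, among them Rab3d, a granule GTPase, with log2 ratios of 1.62 and 1.83, and Kdelr2, which returns chaperones to the endoplasmic reticulum, with 1.22 and 1.66. Of 26 compared folding genes 11 were higher in both libraries and 0 were lower, where 6.98% of all genes compared were higher and 10.8% lower. The 4 folding genes whose promoters are printed above were split. Calr, the lectin chaperone calreticulin, had log2 ratios of 0.85 and 0.89 and Pdia6, a disulphide isomerase, had 0.98 and 1.07, and the chaperone Hspa5 had 0.62 and 0.78, while Canx, the membrane-bound relative of Calr, had -0.24 and 0.12. Ern2, the epithelial form of the stress sensor IRE1, had 1.5 and 2.12.

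Between the surgeries, 631 of the 5448 genes with at least 50 UMIs in goblet cells were at least 1.5-fold higher after colotomy (11.6%) and 372 at least 1.5-fold lower (6.83%) (median log2 ratio 0.09). The split depended on scaling: with the median ratio set to 0, 449 were higher and 502 lower. In other Epcam barcodes 17.7% of 11561 genes were higher after colotomy and 14.4% lower. The ratios of goblet cells are therefore set beside those of other Epcam barcodes and of kept barcodes without Epcam. Other Epcam barcodes include some rich in the rule genes that a UMI of Ptprc, Col1a2 or Mzb1 kept out of the goblet cells. That class therefore holds goblet RNA too. The rule genes took 0.779% of its UMIs after colotomy and 0.864% after sham surgery. Without barcodes holding Ptprc, Col1a2 or Mzb1 they took 0.346% and 0.191%.

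Secreted proteins of the mucus other than the rule genes were mostly lower in colotomy goblet cells. Of the 9 with enough UMIs among 15 listed, 7 were at least 1.5-fold lower, 1 was higher and 1 lay between (median log2 ratio -1.02). Over all genes tested in goblet cells 6.83% were lower and 11.6% higher. In other Epcam barcodes 7 of 10 were lower and 2 higher, with a median of -0.96, but that class holds goblet RNA too. Of all genes tested in other Epcam barcodes 14.4% were lower and 17.7% higher. Among other Epcam barcodes without Ptprc, Col1a2 and Mzb1, the log2 ratio was -4.84 for Mptx1, -2.15 for Ang4 and -1.60 for Lypd8. It was -0.36 for Klk1 and 0.52 for Retnlb there, so the direction was shared only in part. Mptx1, a mucosal pentraxin at chr1:174330518-174332873, gave 24.2 CPM in colotomy goblet cells and 2367 in sham goblet cells, a log2 ratio of -6.61 (interval -7.42 to -5.91). Its UMIs lay in 10 colotomy goblet cells, against 88 sham goblet cells. With the 3 cells highest in it taken out of each library the log2 ratio was -7.20. In sham goblet cells Mptx1 reached 13389 CPM where the 6 rule genes took 10 to 20% of UMIs (27 cells). It gave 1789 at 5 to 10% (149 cells) and 1156 at 2 to 5% (151 cells). Colotomy cells had 0, 27.5 and 22.0 in those ranges. The 3 highest sham cells held 34.8% of all sham Mptx1 UMIs. The ranges are drawn on the rule genes, so these levels are a description only. The Mptx1 ratio was -5.49 in other Epcam barcodes and -3.81 in barcodes without Epcam.

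The peptides Retnlb and Ang4 and the metalloprotease Clca1, which are known targets of interleukin-4 and interleukin-13 signalling, were lower together. Retnlb gave 1893 CPM after colotomy and 3766 after sham surgery, a log2 ratio of -0.99 (-1.08 to -0.90). Clca1 gave 273 and 984 CPM (-1.85, interval -2.08 to -1.62), and Ang4, an angiogenin with antimicrobial activity, gave 174 and 466 (-1.42, -1.72 to -1.13). The Ang4 ratio was -2.06 without the 3 highest cells of each library, which held 53.0% of its colotomy and 27.7% of its sham UMIs. Klk1 gave 1332 and 2041 CPM (-0.62), and its ratio came inside 1.5-fold under 5 of 15 alternatives. Lypd8, a membrane-anchored protein that binds flagellated bacteria, gave 231 and 469 CPM. Its levels were higher in other Epcam barcodes, with 908 CPM after colotomy and 2272 after sham surgery, a log2 ratio of -1.32. In sham goblet cells 3 cells held 25% of the Lypd8 UMIs. Of 7 tested genes of the interleukin response list, 4 were lower and 1, the receptor chain Il13ra1 (57.4 and 23.6 CPM), was higher. The shares over all genes tested in goblet cells were 6.83% lower and 11.6% higher. Among goblet cells whose rule genes took at least 5% of UMIs, the ratio of Lypd8 was -0.08 and that of Itln1, a lectin, -0.35, and the median of the mucus list was -0.48.

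Reg4 and the Reg3 lectins were higher in colotomy goblet cells. Of 16 listed antimicrobial and acute-phase genes 10 held too few UMIs, and of the 6 tested 5 were higher and 0 lower (median log2 ratio 4.37). Over all genes tested in goblet cells 11.6% were higher. Reg3b (160 colotomy and 10 sham UMIs), Reg3g (107 and 11), S100a9 (98 and 2) and S100a8 (56 and 5) reached 50 UMIs through the colotomy library. The count and median were therefore partly set by the filter and are a description only. In other Epcam barcodes 8 of 11 were higher and 2 lower, at a median of 2.59. Of all genes tested there 17.7% were higher and 14.4% lower. Among cells with a Y-linked and no Xist UMI the median was -0.18, where 1 gene of the list, the immunoglobulin transporter Pigr, kept 50 UMIs, while Reg3g had 4.19 and Reg3b 5.99. Reg4, a regenerating-family lectin of secretory cells, gave 736 CPM after colotomy and 262 after sham surgery (log2 ratio 1.49, interval 1.29 to 1.69), with 0.66 in other Epcam barcodes. Its UMIs sat in 55 colotomy and 52 sham cells. Reg3g, at chr6:78466269-78468872, a lectin that kills Gram-positive bacteria, gave 162 and 8.38 CPM (4.27, 3.37 to 5.31), and its relative Reg3b gave 242 and 7.62 (4.99). Few cells carried Reg3b: 3 cells held 40.6% of its 160 colotomy UMIs, and the 41 colotomy cells with a gene of the small intestine held 83 of them. Without the cells with such a gene, Reg3b gave 129 and 6.54 CPM in colotomy and sham goblet cells, a log2 ratio of 4.31. Both were also higher after colotomy in other Epcam barcodes, by log2 ratios of 3.39 and 3.46, where their levels exceeded those of goblet cells. Barcodes without Epcam had 6.11 for Reg3g and 5.53 for Reg3b, from 37 Reg3g UMIs in the sham library. The neutrophil genes S100a8 (84.6 and 3.81 CPM) and S100a9 (148 and 1.52) moved with them. The summed level of the 6 neutrophil markers in goblet cells was 276 CPM after colotomy and 7.62 after sham surgery, and in all other kept barcodes 2973 and 121. The part of neutrophil RNA in the Reg3 result was not tested.

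**Figure D4:**
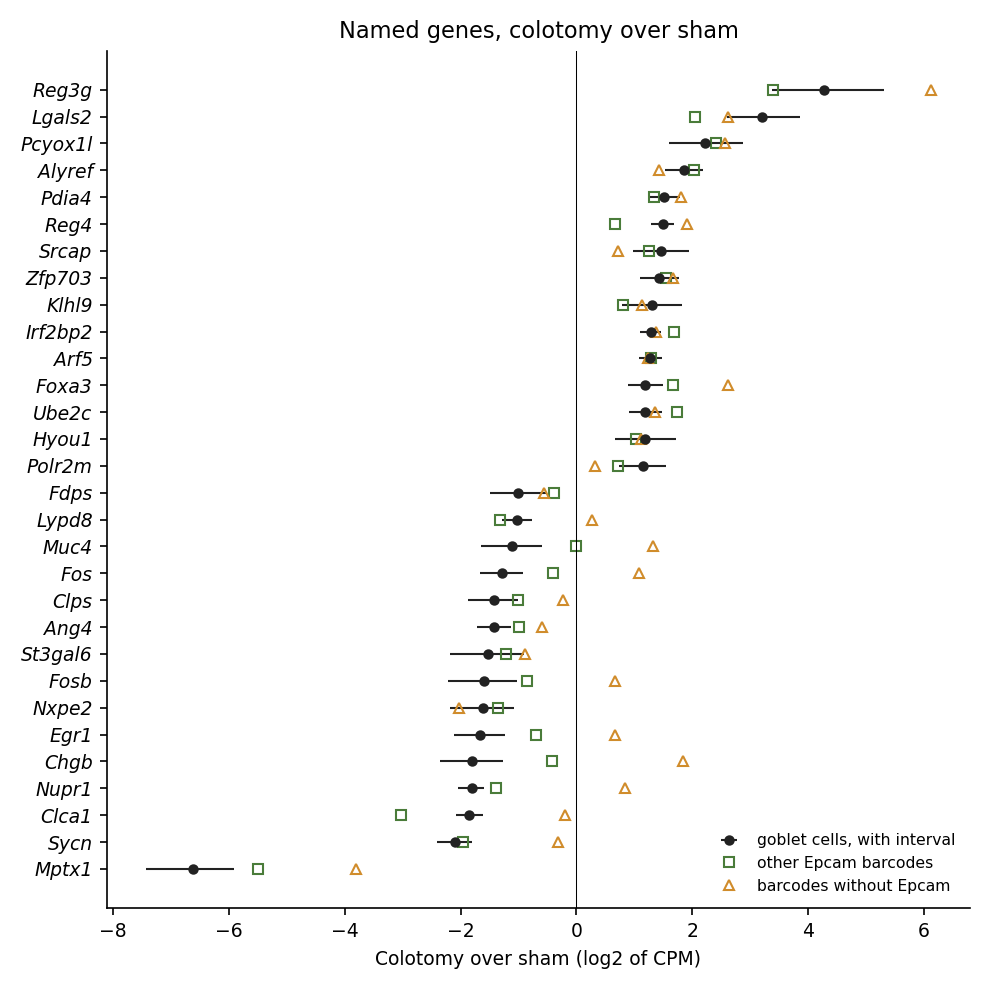
Log2 ratio of CPM, colotomy over sham (x axis), for the 15 genes highest and the 15 lowest in goblet cells among genes that met the naming minimum and were not below the remaining barcodes (black circles, bars for exact 95% intervals), with the same ratio in other Epcam barcodes (green squares) and in kept barcodes without Epcam (orange triangles). Of the genes shown, Reg3g is highest at 4.27 and Mptx1 lowest at -6.61, and the 15 higher genes have ratios above 0 in all 3 classes.

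The other genes at the top of the ranking were shared widely. Lgals2, which codes for galectin-2, gave 196 and 21.3 CPM in colotomy and sham goblet cells. Its log2 ratio was 3.20 in goblet cells, 2.05 in other Epcam barcodes and 2.61 in barcodes without Epcam, where it gave 6.72 and 1.1 CPM. Of its 130 UMIs in colotomy goblet cells, 57 lay in the 41 cells with a gene of the small intestine. The 47 colotomy cells with a Zg16 UMI held 58 of them. Pcyox1l, the mRNA export adaptor Alyref, the chromatin remodeller Srcap, Zfp703, Klhl9, Irf2bp2, the small GTPase Arf5, the mitotic enzyme Ube2c and Polr2m had log2 ratios of 1.14 to 2.22 in goblet cells and 0.32 to 2.57 in barcodes without Epcam. At the other end, Sycn, the granule protein syncollin, gave 162 and 695 CPM (-2.10), with -1.96 in other Epcam barcodes. Nupr1, a stress-induced chromatin protein, gave 275 and 965 (-1.81), and colipase, coded by Clps, gave 81.6 and 219 (-1.42). In other Epcam barcodes Nupr1 had -1.38 and Clps -1.01, and in barcodes without Epcam they had 0.84 and -0.23. Among other Epcam barcodes without Ptprc, Col1a2 and Mzb1, Nupr1 had -0.87 and Clps 0.17. Nxpe2, the sialyltransferase St3gal6 and the membrane mucin Muc4 had log2 ratios of -1.61 to -1.11, and Fdps of the cholesterol pathway gave 69.5 and 139 CPM. Muc4 had -0.01 in other Epcam barcodes and 1.32 in barcodes without Epcam. In these classes Nxpe2 had -1.36 and -2.02, St3gal6 -1.22 and -0.88, and Fdps -0.39 and -0.56. Chgb, a granule protein of endocrine cells, gave 51.4 and 178 CPM, but 88.2% of its colotomy UMIs and 67.1% of its sham UMIs came from 3 cells each. Among cells with a Y-linked and no Xist UMI, the ratio of Chgb was 0.83 instead of -1.80.

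Transcription factors of the secretory lineage were higher or within 1.5-fold. Of 14 tested, 6 were higher after colotomy and 0 lower (median log2 ratio 0.47), where 11.6% of all genes tested in goblet cells were higher. In other Epcam barcodes 11 of 15 were higher, with a median of 0.83, where 17.7% of all genes tested there were higher. Foxa3, a forkhead factor, gave 308 and 135 CPM in colotomy and sham goblet cells (1.19, interval 0.89 to 1.49), and Atoh1 gave 204 and 107 (0.93, 0.58 to 1.29). Xbp1, which drives the secretory expansion, gave 489 and 303, and Sox9, a crypt factor, gave 485 and 321. Spdef (474 and 349) and Creb3l1 (767 and 710) lay within 1.5-fold. In barcodes without Epcam, Foxa3 had a ratio of 2.62 and Atoh1 of 2.24, alongside six-gene shares of 0.125% of UMIs after colotomy and 0.0515% after sham surgery, a measure of goblet RNA outside these cells.

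Folding genes were also higher or within 1.5-fold. Of 25 tested, 7 were higher after colotomy (Pdia4, Hyou1, Dnajb9, Xbp1, Edem1, Dnajb11 and Pdia6) and 0 lower (median log2 ratio 0.41). Over all genes tested in goblet cells 11.6% were higher and 6.83% lower. In other Epcam barcodes 10 of 27 were higher and 0 lower, with a median of 0.45. Of all genes tested there 17.7% were higher and 14.4% lower. Pdia4, a disulphide isomerase, gave 415 and 146 CPM in colotomy and sham goblet cells (1.51, interval 1.23 to 1.78), and the chaperone Hyou1 gave 106 and 46.5 (1.19, 0.67 to 1.71). Pdia6, whose promoter is printed above, gave 468 and 299 (0.65). It was the only one of the 7 in which the element was found, and Hyou1 had no entry in the promoter table. Hspa5, the chaperone BiP, gave 656 and 475 (0.47), Canx 400 and 296 (0.43) and Calr 1109 and 945 (0.23), all within 1.5-fold. Ern2 had 148 and 213 CPM (-0.53). O-glycan genes were mostly level, with 2 of 23 higher, 3 lower and a median of 0.13. The 3 lower genes were St3gal6, the N-acetylglucosaminyltransferase B3gnt7 (37.8 and 77.7 CPM) and the sulphotransferase Chst4 (34.7 and 56.4). Secretory transport had 4 of 23 higher, 1 lower (Ssr4) and a median of 0.20. Beside the shares over all tested genes, the calls of the O-glycan and transport lists are too few to be read as a result.

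**Figure D5:**
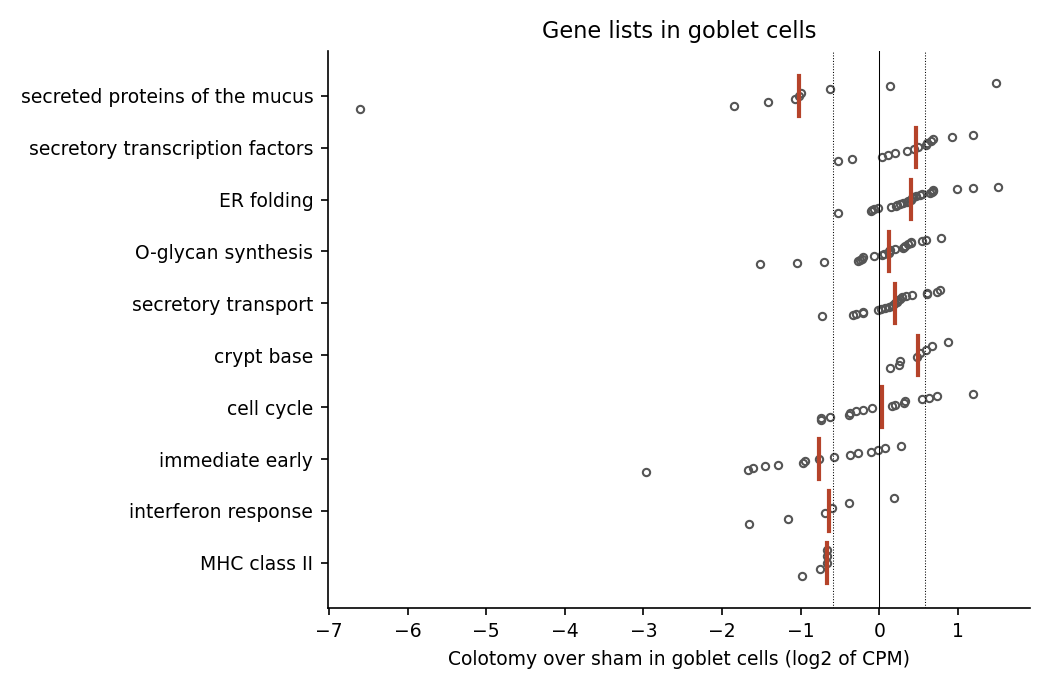
Log2 ratio of CPM, colotomy over sham, in goblet cells (x axis) for each tested gene (open circles) of 10 gene lists (rows), with red bars at the list medians and dotted lines at 1.5-fold. The mucus list lies left with a median of -1.02 and Mptx1 at -6.61, and the transcription factor and folding lists lie right with medians of 0.47 and 0.41.

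Immediate early genes, which tissue digestion can induce, were lower in colotomy goblet cells. Of 15 tested, 8 were lower and 0 higher (median log2 ratio -0.77), against -0.19 in other Epcam barcodes. Of all genes tested in goblet cells 6.83% were lower. Fos gave 112 and 274 CPM after colotomy and sham surgery (-1.29), Egr1 78.6 and 250 (-1.67) and Fosb 45.3 and 137 (-1.60). In barcodes without Epcam these 3 genes were higher after colotomy, by log2 ratios of 1.08, 0.66 and 0.66. The heat shock genes Hspa1a (36.3 and 99.1) and Hspa1b (51.4 and 101) were lower in goblet cells. Whether digestion took part was not tested. The 5 tested MHC class II genes were all lower (median -0.67), as were all 7 in other Epcam barcodes (median -1.70). The planned subtraction of free RNA took its colotomy profile from barcodes under 500 UMIs. The sham library held 0 such barcodes, and kept barcodes with Ptprc or Col1a2 and no Epcam stood in for them. Under these unlike profiles the goblet median was -0.44, which cannot be read as removal of free RNA alone. With the profile of barcodes without Epcam in both libraries, a setting added after seeing the data, the goblet median was -0.07. Markers of B cells, which present antigen on MHC class II, summed to 121 CPM in colotomy goblet cells and 364 in sham goblet cells. The part of B cell RNA in the MHC class II result was not tested. Of 6 tested interferon response genes 4 were lower, with a median of -0.64, and 12 of the 18 listed held too few UMIs. In other Epcam barcodes 15 of 18 were lower and 0 higher (median -1.40), where 14.4% of all genes tested there were lower.

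In goblet cells genes of proliferation went both ways and crypt base genes were higher or within 1.5-fold. Of 16 cell cycle genes 3 were higher and 3 lower after colotomy (median log2 ratio 0.04), where 11.6% of all tested genes were higher and 6.83% lower. Mki67, a marker of cycling cells, gave 106 and 164 CPM, while Ube2c was among the higher genes. In other Epcam barcodes 6 of 16 cell cycle genes were higher and 0 lower (median 0.44), where 17.7% of all genes tested there were higher. Crypt base genes had 3 of 8 higher and 0 lower in goblet cells (median 0.50), with Ascl2, a stem cell factor, at 40.8 and 22.1. In other Epcam barcodes 8 of 9 were higher and 0 lower (median 1.17), so the rise was not particular to goblet cells. Of 17 nuclear genes of oxidative phosphorylation, 16 lay within 1.5-fold in goblet cells.

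To compare shares of cells at equal depth, each cell was thinned to 500 UMIs, which left out no goblet cell. A Retnlb UMI was then found in 30.3% of colotomy goblet cells and 47.7% of sham goblet cells, against 0.966% and 1.5% of leukocyte barcodes with Ptprc and no Epcam, which should lack it. Before thinning the goblet shares were 38.3% and 67.3%, at median depths of 1119 and 3439 UMIs in goblet cells and 788 and 1394 in those leukocyte barcodes. Spdef was found in 20.3% and 18% of thinned colotomy and sham goblet cells (40.2% and 62.1% before thinning), so the gap before thinning was not seen at equal depth. Klk1 was found in 40.8% and 56.3% after thinning. Atoh1 was found in 9.84% (7.34 to 12.8%) of colotomy and 4.59% (2.59 to 7.45%) of sham goblet cells and Reg4 in 9.02% (6.63 to 11.9%) and 4.28% (2.36 to 7.08%), and the ends of both pairs of intervals overlap. Thinned to 1000 UMIs, which left out 205 colotomy and 21 sham goblet cells, the shares were 8.83% and 7.52% for Reg4, 19.4% and 11.4% for Atoh1 and 40.6% and 30.4% for Spdef. Clca1 was found in 7.58% (5.39 to 10.3%) of colotomy and 10.4% (7.31 to 14.2%) of sham goblet cells, intervals that overlap. Reg3g was found in 7.58% of colotomy cells and in 0 of 327 sham cells at 500 UMIs, which by a floor of 3 counts allows a share of up to 0.917% of cells with a UMI at that depth. Before thinning, 57 colotomy and 9 sham goblet cells held a Reg3g UMI, 11.7% and 2.75%. Lgr5, a stem cell receptor, was found in 0.820% and 0.612%, near the 1.29% and 0.553% of other Epcam barcodes, and no difference was detectable at this depth.

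Goblet cells with a Zg16 UMI differed from the rest in both libraries. Cells with Zg16 were 47 of 488 after colotomy, with a median of 836 UMIs, and 15 of 327 after sham surgery, with 3310. Zg16, Tff3 and Fcgbp all count toward the 2% of the rule. A cell with Zg16 could pass partly on it, and a cell without it had to pass on the other rule genes. The levels of rule genes in this split are therefore partly set by the rule and are a description only. Fcgbp was present in 78.7% of the colotomy cells with Zg16 and 12.5% of those without, and in 66.7% and 34.0% in the sham library. Clca1 gave 2821 CPM in colotomy cells with Zg16 and 74.9 in those without, and 4549 and 822 in the sham library. Tff3 gave 23303 against 1215 CPM after colotomy and 1412 against 581 after sham surgery. These few cells thus held 1115 of the 1861 Tff3 UMIs of all colotomy goblet cells. Krt20 (251 against 3.26 and 279 against 13.5 CPM) and Car1 (1463 against 129 and 1150 against 107) were higher in cells with Zg16 as well. Sox9 was lower in them, with 62.7 against 518 CPM after colotomy and 122 against 330 after sham surgery, and so was Mt3, with 20.9 against 248 and 87.1 against 304. Without the cells with Zg16, the colotomy over sham log2 ratio was 1.06 for Tff3 instead of 2.19, -3.46 for Clca1 instead of -1.85, and -2.12 for Fcgbp instead of -0.22. The colotomy cells with Zg16 held 321 of the 416 Fcgbp UMIs of colotomy goblet cells. Plasma cell genes also differed across the split, but much of their RNA lay in few cells. Of 2076 sham Igkc UMIs 1 cell held 1005, and 3 colotomy cells held 48.3% of the colotomy Igkc UMIs. Sham cells with Zg16 held 43 Igkc UMIs and 1 Jchain UMI, so no direction can be read from the sham library. Igkc gave 6333 against 671 CPM in colotomy cells with and without Zg16 and 749 against 1620 in sham cells, and Jchain gave 982 against 58.6 and 17.4 against 89.2. The part of plasma cell RNA in the split was not tested. In the sham library 78.2% of Zg16 UMIs came from 3 cells, so its Zg16 level rests on them, and without the 3 highest cells of each library the log2 ratio was 4.78 instead of 3.18.

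Genes of other regions and cell types were present at low levels in some goblet cells. Fabp6, an ileal bile acid binding protein, gave 77 UMIs in 23 colotomy cells and 7 UMIs in 7 sham cells. Defa24, a Paneth cell defensin, gave 25 and 0 UMIs, and Olfm4, a small intestinal crypt gene in mice, gave 19 and 0 UMIs. A UMI of any of 13 genes of the small intestine was found in 41 colotomy and 15 sham goblet cells, 8.40% and 4.59%. The same held for 12.4% and 13.5% of other Epcam barcodes and for 4.09% and 0.919% of barcodes with Ptprc and no Epcam, at each barcode's own depth. Hoxb13, a gene of the distal colon, gave 2 and 25 UMIs. The position along the bowel and the surgery cannot be told apart in these libraries. Markers of colonocytes summed to 2221 CPM in colotomy and 2301 in sham goblet cells, against 5378 and 6093 in other Epcam barcodes. Fibroblast markers summed to 505 and 142, with 1 of 6 at 0 in each library, against 17212 and 2787 in all other kept barcodes, and erythroid markers to 696 and 1423. Their part in the differences between the surgeries was not tested.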

How the data were processed

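Single-cell transcript counts of 1 colotomy and 1 sham library were analysed. The deposited values are raw UMI counts per gene and barcode, with hashtag counts beside them, written by Cell Ranger 6.0.0 per the file headers; the submitters' processing notes name Cell Ranger, Seurat, Space Ranger, STAR 2.5.1b and mm10. Whether doublets or free RNA were removed before deposit is not given in the sources used here.

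UMIs were summed over the goblet cells, other Epcam barcodes and kept barcodes without Epcam of each library and divided by the class total (CPM, Python 3.11.15, SciPy 1.17.1). Levels carry exact Poisson, shares exact Clopper-Pearson and ratios exact conditional binomial intervals at 95%. A gene was tested with at least 50 UMIs over both libraries and called at 1.5-fold, with a floor of 3 counts for zeros. There is no replicate, so no p-value is given. The ratio and its interval were run on simulated Poisson counts of library sums. That simulation leaves out the concentration of UMIs in few cells, so it says nothing on how the intervals hold there.

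Genes named without a list are the 15 highest and 15 lowest ratios between surgeries, with at least 50 UMIs and 100 CPM in the higher library, where the level may not fall under that of the remaining kept barcodes, and the 15 highest and 10 lowest of goblet cells over other Epcam barcodes by the weaker library, with the same minimum in both; mitochondrial, ribosomal, haemoglobin, immunoglobulin and unnamed genes and the rule genes were left out. The rule genes, the genes of the thinned shares and the list members may be named whatever their ratio. The members and lists were chosen with earlier results of these data known. Cell depth is given beside the results.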

Additional observations from a re-analysis of the deposited data

Results flagged for a closer look

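For 2 listed genes the difference between the surgeries had opposite directions, each past 1.5-fold, in goblet cells and in other Epcam barcodes. Hspa1b, a heat shock chaperone, had a colotomy over sham log2 ratio of -0.97 in goblet cells and 0.89 in other Epcam barcodes. Ccnb2, a mitotic cyclin, had -0.74 in goblet cells (interval -1.57 to 0.02) and 0.68 in other Epcam barcodes. With 1 library per surgery, neither difference between the classes was tested.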

How the results depend on the processing

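No paired analysis was possible because each surgery has 1 library and no test was made; replicates could not be left out for the same reason. The share of goblet cells in colotomy and sham barcodes was 6.95% and 0.930% with the 6 genes at 1% or more, 2.28% and 0.418% at 5% or more, 10.9% and 1.04% at 1000 or more UMIs and 500 genes, 3.23% and 0.655% with an Epcam UMI required, and 6.36% and 1.32% with the rule read at 500 UMIs (added after seeing the data). Among barcodes with more bowel hashtag the sham share was 3.69%, from 29 cells, with 216 genes lower between surgeries and 108 genes higher over other Epcam barcodes instead of 480. Against 631 higher and 372 lower genes, 347 were higher at 5% or more, 305 were higher and 245 lower in cells with a Y-linked and no Xist UMI, and 618 were lower with the rule read at 500 UMIs. With genes of 10 or more UMIs admitted, 1761 were higher and 1528 lower, and with 1 or more, 2111 and 1933, while 881 were higher over other Epcam barcodes. Over 15 alternatives the colotomy over sham log2 ratio spanned 2.65 to 5.64 for Reg3g, 1.05 to 3.89 for Reg4, 2.39 to 4.12 for Lgals2, -7.67 to -4.40 for Mptx1, -3.46 to -1.26 for Clca1 and -1.27 to -0.71 for Retnlb. Ratios came inside 1.5-fold for Fos (-0.43), Fosb (-0.35), Ang4 (-0.48) and Ube2c (0.37) among bowel-hashtag cells, for Fdps (-0.37), Klhl9 (0.45) and Srcap (0.35) in Y-linked cells, and for Lypd8 and Itln1 at 5% or more. In Y-linked cells the antimicrobial list median, from 1 gene, was -0.18 instead of 4.37 and Chgb was 0.83 instead of -1.80. The cause of these moves was not tested beyond the fewer cells or more genes that the settings bring. The low depth of colotomy cells limits most genes with under 50 UMIs.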
